A study of Mus musculus with 6 samples.

Results

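Ether lipids are glycerophospholipids in which a fatty alcohol, and not a fatty acid, is joined to the first carbon of glycerol. Plasmalogens, the most abundant of them in mammals, carry a vinyl ether bond at that position, and their synthesis begins in the peroxisome and ends in the endoplasmic reticulum. The liver makes ether lipids but stores few plasmalogens, and lysoplasmalogens, which lack the chain on the middle carbon, are among the lysolipids that the study links to SPNS1, a lysosomal transporter. The genes described here are the 8 of the 54532 genes in the deposited liver RNA-Seq table that encode the named enzymes of this pathway. They were picked by gene symbol from a list that sets no threshold on their values, by a choice made with earlier results of these data known. *Gnpat* and *Agps* encode the acyltransferase and the alkyl synthase of the peroxisome, *Far1* and *Far2* the reductases that supply the fatty alcohol, and *Tmem189* the desaturase that forms the vinyl ether bond. *Tmem86a* and *Tmem86b* encode lysoplasmalogenases, which cleave that bond in lysoplasmalogens, and *Agmo* the monooxygenase that breaks down alkylglycerols.

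RNA was sequenced from the livers of 6 mice, 3 g*Spns1*-cKO and 3 controls, with 1 library per mouse. The g*Spns1*-cKO mice were *Spns1* fl/fl mice carrying Rosa26Cre-ERT2, a tamoxifen-dependent Cre recombinase active in the whole body, and according to the methods were given tamoxifen at 50 mg/kg on days 11, 13 and 15 after birth, which removes exon 3 of *Spns1*. The methods name *Spns1* fl/fl littermates without Cre as controls, whereas the sample labels call the controls wild type, and neither says whether the controls received tamoxifen or how old the mice were when the livers were taken. The Rosa26 locus is active in most cell types, so that changes in hepatocytes and in other liver cells were measured together. The comparison asks how the livers of mice that lost SPNS1 after birth differed in these transcripts.

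The libraries held between 30350002 and 35295611 counts. Counts were scaled by TMM, a factor per library that places the typical gene near no change, and are given as CPM, counts per 1000000 counts of the scaled library. The TMM factors were 0.834 to 0.873 in controls and 1.16 to 1.18 in g*Spns1*-cKO livers, so that the scaling bears on every direction given. Over the 15449 genes tested, the log2 fold change had a median of 0.0138 under TMM and of 0.457 with library size only. *Spns1* itself stood at 35.9, 50.7 and 34.6 CPM in control livers, against 17.8, 30.6 and 17.8 CPM in g*Spns1*-cKO livers. It was lower without overlap, with a log2 fold change of -0.87 (SE, standard error, 0.25; adjusted p = 0.0300 by the quasi-likelihood method of edgeR, with Benjamini-Hochberg adjustment over all genes tested). With library size only this was -0.43 (edgeR adjusted p = 0.213), and without control replicate 2, g*Spns1*-cKO replicate 1 or g*Spns1*-cKO replicate 3 the adjusted p of *Spns1* was 0.0785, 0.0910 and 0.0830.

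Of the 8 ether lipid genes, all passed the filter on low counts, and 6 passed an adjusted p of 0.05 in edgeR, 3 of them higher in g*Spns1*-cKO than in control livers and 3 lower. *Far1*, *Tmem86a* and *Agps* rose 2.73-fold, 2.05-fold and 1.44-fold. *Tmem86b*, *Tmem189* and *Gnpat* were lower, at 0.458, 0.508 and 0.822 of the control level, and the call for *Gnpat* depended on single livers and on the scaling. *Far2* and *Agmo* did not pass. The successive enzymes *Gnpat* and *Agps*, and the paralogs *Tmem86b* and *Tmem86a*, thus stood on opposite sides. These 6 of 8 stand beside 41.8% of all genes tested, with 21.3% higher and 20.5% lower, so that a called gene was common in this comparison, and the list is not an independent sample of genes. At an adjusted p under 0.01 there were 5 of 8, all but *Gnpat* among the 6, against 25.2% of all genes, and 3 of 8 (*Far1*, *Tmem86a* and *Tmem86b*) were called and changed at least 2-fold, against 17.9%. The median log2 fold change of the 8 genes was 0.17, and 6 of them did not overlap between groups, against 54.1% of all genes tested.

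**Figure D1:**
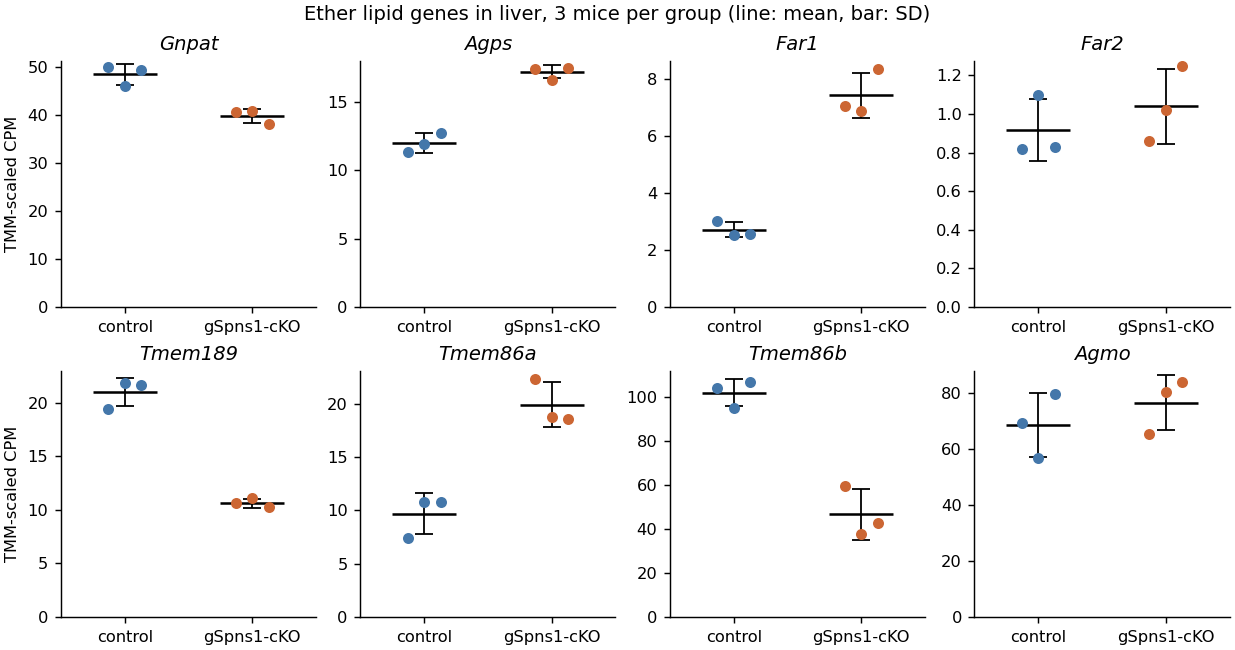
Each panel plots 1 ether lipid gene as TMM-scaled CPM on a linear axis from 0, with a point for each of the 3 control and 3 g*Spns1*-cKO livers, a line at the mean and a bar of 1 SD. The groups separate for *Gnpat*, *Agps*, *Far1*, *Tmem189*, *Tmem86a* and *Tmem86b* and overlap for *Far2* and *Agmo*.

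The sequences upstream of 4 of the called genes are shown to set the start regions of the 3 genes that rose beside that of *Tmem86b*, which fell. The promoter table from RefSeq (GRCm38.p6) held 7 of the 8 genes, and *Tmem189* was not matched. Each stretch runs 5′ to 3′ on the gene's strand and ends at the base before the RefSeq start of transcription, except for *Tmem86a*, where the last 39 bases are left out because GENCODE places them in an exon of the gene. The stretch shown for *Tmem86b* lies inside its longer GENCODE gene model, which begins further upstream, and 62 of its bases lie on exons of the antisense gene *Gm44877*. Capitals mark CCAAT, the letters of the CCAAT box, and GGGCGG, the GC box bound by Sp1, on either strand.
Agps, chr2:75831927-75832176, plus strand: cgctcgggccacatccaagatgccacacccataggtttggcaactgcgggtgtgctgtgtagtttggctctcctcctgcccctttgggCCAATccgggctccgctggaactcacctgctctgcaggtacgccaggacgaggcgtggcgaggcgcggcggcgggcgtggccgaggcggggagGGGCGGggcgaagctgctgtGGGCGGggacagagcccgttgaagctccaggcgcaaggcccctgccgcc
Far1, chr7:113513584-113513833, plus strand: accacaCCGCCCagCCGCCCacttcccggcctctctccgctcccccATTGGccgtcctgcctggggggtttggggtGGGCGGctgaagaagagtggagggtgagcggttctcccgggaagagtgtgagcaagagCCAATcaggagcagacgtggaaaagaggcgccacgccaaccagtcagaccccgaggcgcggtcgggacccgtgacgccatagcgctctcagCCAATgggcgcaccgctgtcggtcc
Tmem86a, chr7:47050390-47050600, plus strand: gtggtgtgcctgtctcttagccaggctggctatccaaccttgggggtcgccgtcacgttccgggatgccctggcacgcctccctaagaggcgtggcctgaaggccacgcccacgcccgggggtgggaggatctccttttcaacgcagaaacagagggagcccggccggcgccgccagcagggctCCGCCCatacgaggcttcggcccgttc
Tmem86b, chr7:4630483-4630732, minus strand: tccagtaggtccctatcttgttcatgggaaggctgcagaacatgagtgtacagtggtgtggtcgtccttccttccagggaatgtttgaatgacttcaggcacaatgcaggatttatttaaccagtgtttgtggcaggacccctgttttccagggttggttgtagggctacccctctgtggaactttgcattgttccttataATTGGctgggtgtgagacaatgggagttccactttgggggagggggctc

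Over the 250 bases before the start, the 3 genes that rose were rich in CpG, with 22 CpG in *Agps*, 21 in *Far1* and 21 in *Tmem86a*, where the median of the 32851 RefSeq promoters was 6. *Gnpat*, which was lower, held 24 and *Far2* 17, so a CpG-rich start was not particular to the genes that rose. The *Gnpat* window lies wholly on exons of neighbouring genes. Of the *Far2* window, which reaches into the GENCODE model of *Far2*, 184 bases lie on exons of *Far2* itself or of *Far2os2*. *Tmem86b* and *Agmo* held 1 CpG each. CCAAT was found upstream of *Agps*, *Far1*, *Tmem86a* and *Tmem86b*, 4 of 7 members, and in 33.8% of all promoters, and that of *Tmem86a* lay in the bases not shown. GGGCGG was found upstream of *Gnpat*, *Agps*, *Far1*, *Far2* and *Tmem86a*, 5 of 7, and in 32.7% of all promoters. The E-box CACGTG was found upstream of *Gnpat*, where its first base lay at -224 from the start, and in 6.02% of all promoters. The DR1 element (AGGTCA repeated after any single base), a direct repeat read by nuclear receptors such as PPARα, and TGACGTCA, the cAMP response element, were found upstream of none of the 7, and in 0.0335% and 1.55% of all promoters. All motifs were searched on both strands, and a match is a description of the letters.

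GNPAT and AGPS act one after the other in the peroxisome, where GNPAT joins a fatty acid to dihydroxyacetone phosphate and AGPS exchanges it for a fatty alcohol. *Gnpat* (ENSMUSG00000031985, chromosome 8, 124863033 to 124890057, plus strand of GRCm38) stood at 49.9, 46.0 and 49.4 CPM in control livers, compared with 40.6, 40.7 and 38.1 CPM in g*Spns1*-cKO livers. No g*Spns1*-cKO liver reached the lowest control liver, and the gap was narrow. Its log2 fold change was -0.28 (SE 0.10, 95% interval -0.50 to -0.07, edgeR adjusted p = 0.0376). The call was lost without control replicate 1 or 3 (edgeR adjusted p = 0.0803 and 0.0834) and without g*Spns1*-cKO replicate 2 or 3 (adjusted p = 0.0664 and 0.142). With library size only the value turned positive, to 0.16 (edgeR adjusted p = 0.180). Of its exon bases, 7.81% lie on exons of *Gm16163* on the same strand and 2.45% on exons of *2810004N23Rik* on the other, and the latter was also lower, with a log2 fold change of -0.42 (edgeR adjusted p = 0.0101).

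*Agps* (ENSMUSG00000042410, chromosome 2, 75832177 to 75931350, plus strand) rose, from 11.3, 11.9 and 12.7 CPM in control livers to 17.4, 16.6 and 17.5 CPM in g*Spns1*-cKO livers. The groups did not overlap and each varied little. The log2 fold change of *Agps* was 0.52 (SE 0.12, 95% interval 0.27 to 0.78, edgeR adjusted p = 0.00498), and no exon of another gene lies on its exons. Since both genes were counted in the same libraries, their ratio does not depend on the scaling. Per base of exon, *Gnpat* held 11.6, 10.2 and 10.2 counts for each count of *Agps* in control livers, against 6.12, 6.42 and 5.73 in g*Spns1*-cKO livers. The ratio of *Gnpat* to *Agps* was thus lower in every g*Spns1*-cKO liver, with a log2 difference of -0.81 (exact two-sided permutation, p = 0.1, which 3 livers against 3 cannot go below, and 0.1 after adjustment over 5 ratios).

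FAR1 is the peroxisomal reductase that makes the fatty alcohol used by AGPS and is known as the step that limits plasmalogen synthesis. *Far1* (ENSMUSG00000030759, chromosome 7, 113513834 to 113571511, plus strand) had 3.02, 2.53 and 2.57 CPM in control livers, against 7.03, 6.88 and 8.32 CPM in g*Spns1*-cKO livers. Every g*Spns1*-cKO liver was above every control liver, and the rise of *Far1* had the largest fold among the 8 genes. The log2 fold change of *Far1* was 1.45 (SE 0.19, 95% interval 1.04 to 1.86, edgeR adjusted p = 0.00023). These values rested on 65 to 85 counts in control libraries and on 253 to 327 in g*Spns1*-cKO libraries.

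*Far2* (ENSMUSG00000030303, chromosome 6, 148047259 to 148182758, plus strand), which encodes the second fatty acyl-CoA reductase, had the fewest counts of the 8 genes, between 21 and 34 in control and between 31 and 49 in g*Spns1*-cKO libraries. It stood at 0.818, 1.10 and 0.830 CPM in control livers, compared with 0.862, 1.02 and 1.25 CPM in g*Spns1*-cKO livers, with the groups overlapping. Its log2 fold change was 0.18 (SE 0.34, 95% interval -0.56 to 0.93, edgeR adjusted p = 0.697), an interval that holds both a fall and a rise, and no difference was detected. Of the exon bases of *Far2*, 12.6% lie on exons of *Ergic2* or *Far2os2* on the opposite strand, and *Ergic2* had between 859 and 1170 counts. Per base, *Far1* held 3.36, 2.08 and 2.81 counts for each count of *Far2* in control livers, against 7.41, 6.15 and 6.06 in g*Spns1*-cKO livers, which differ by 1.27 on the log2 scale (exact permutation test, p = 0.1). *Far1* gave 72.8% ± 4.81 of the summed RPKM of both reductases (RPKM, CPM per kilobase of exon) in control livers, against 86.6% ± 1.27 in g*Spns1*-cKO livers (SD, n = 3). Against *Agps*, the ratio of *Far1* was 0.313, 0.250 and 0.236 in controls and 0.472, 0.484 and 0.558 in g*Spns1*-cKO (difference 0.93 on the log2 scale, exact permutation test, p = 0.1).

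**Figure D2:**
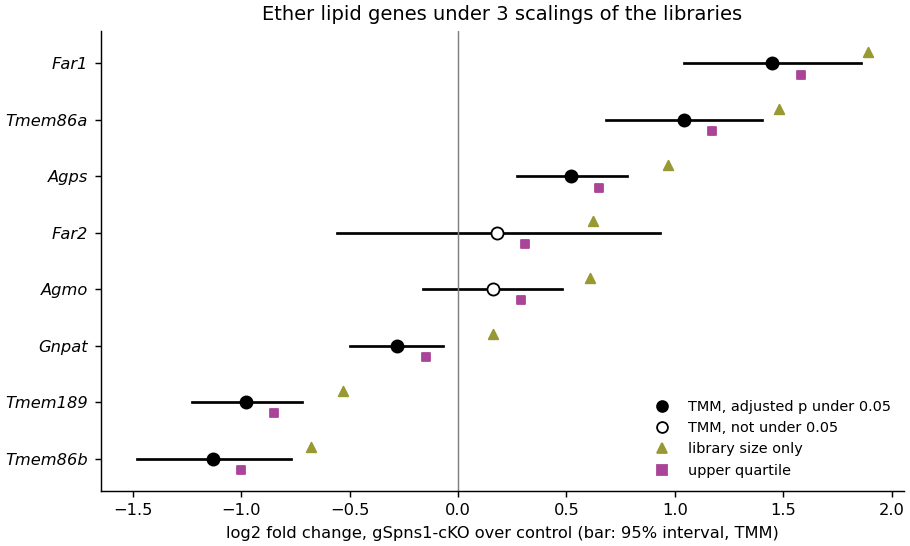
The horizontal axis gives the log2 fold change of each ether lipid gene, g*Spns1*-cKO over control, with circles and 95% interval bars for TMM scaling, triangles for library size only and squares for upper-quartile scaling. *Gnpat* crosses 0 with library size only, from -0.28 to 0.16, while *Far1*, *Tmem86a*, *Agps*, *Tmem189* and *Tmem86b* keep their side of 0 under all 3 scalings.

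TMEM189, also called PEDS1, is the plasmanylethanolamine desaturase of the endoplasmic reticulum, which turns an alkyl into a vinyl ether bond and so makes the plasmalogen proper. *Tmem189* (ENSMUSG00000090213, chromosome 2, 167642608 to 167689822, minus strand) had 19.4, 21.8 and 21.7 CPM in control livers, against 10.6, 11.1 and 10.3 CPM in g*Spns1*-cKO livers. The g*Spns1*-cKO livers lay close together and far below the control livers. The log2 fold change of *Tmem189* was -0.98 (SE 0.12, 95% interval -1.23 to -0.72, edgeR adjusted p = 0.000149). Scaled by library size only, it was -0.53 (edgeR adjusted p = 0.00353). Relative to *Gnpat*, the entry enzyme, *Tmem189* held 0.428, 0.521 and 0.482 counts per base in control livers, against 0.286, 0.300 and 0.296 in g*Spns1*-cKO livers. The log2 difference was -0.69 (exact permutation test, p = 0.1).

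*Tmem189* shares exon bases with other genes. Of its 3265 exon bases, 21.3% lie on exons of *Gm20431* on the same strand, a read-through gene that joins *Tmem189* to *Ube2v1*, and *Gm20431* had no count in any library. A further 9.56% lie on *Cebpb*, an abundant gene on the opposite strand, and *Cebpb* was lower as well, with 91.6 CPM on average in control and 38.4 CPM in g*Spns1*-cKO livers (log2 fold change -1.25, edgeR adjusted p = 0.000486). Whether counting used strand is not given in the sources used here, and the part of *Cebpb* reads in the counts of *Tmem189* was not tested.

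The lysoplasmalogenases TMEM86A and TMEM86B are membrane proteins that split a lysoplasmalogen into an aldehyde and a glycerophosphodiester, and TMEM86B is known as the liver enzyme. *Tmem86b* (ENSMUSG00000045282, chromosome 7, 4628040 to 4631422, minus strand) was the most abundant of the 8 genes and had 104, 94.9 and 107 CPM in control livers. In g*Spns1*-cKO livers it stood at 59.4, 37.7 and 42.7 CPM. The groups did not overlap, and g*Spns1*-cKO replicate 1 was the least reduced. Its log2 fold change was -1.13 (SE 0.16, 95% interval -1.48 to -0.77, edgeR adjusted p = 0.000487), and between -1.34 and -1.0 with each liver left out in turn. Of its exon bases 8.61% lie on *Gm44877*, an antisense gene with 4 to 26 counts.

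*Tmem86a* (ENSMUSG00000010307, chromosome 7, 47050601 to 47054777, plus strand) rose from 7.43, 10.8 and 10.8 CPM in control livers to 22.3, 18.7 and 18.6 CPM in g*Spns1*-cKO livers. Control replicate 1 was the lowest and g*Spns1*-cKO replicate 1 the highest, and the groups did not overlap. The log2 fold change of *Tmem86a* was 1.04 (SE 0.16, 95% interval 0.68 to 1.4, edgeR adjusted p = 0.000779), and no 50-base word of its transcripts occurs in the transcripts of another gene. Both paralogs are on chromosome 7 but apart from each other, and their opposite changes met in the ratio. Per base, *Tmem86a* held 0.0727, 0.116 and 0.103 counts for each count of *Tmem86b* in control livers, against 0.382, 0.503 and 0.444 in g*Spns1*-cKO livers. This is a 4.62-fold difference, 2.21 on the log2 scale, in which every g*Spns1*-cKO liver was above every control liver (exact permutation test, p = 0.1, the smallest possible).

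Unlike the ratio, the sum of both genes depends on the scaling. Summed over both genes, lysoplasmalogenase transcripts stood at 58.1, 55.2 and 61.4 RPKM in control livers, compared with 42.8, 29.5 and 32.1 RPKM in g*Spns1*-cKO livers, a mean of 58.2 ± 3.07 against 34.8 ± 7.04 (SD, n = 3, exact permutation test, p = 0.1). With library size only, an alternative added after the data were seen, the sums were 50.3, 48.2 and 51.2 RPKM in controls and 49.6, 34.8 and 37.4 RPKM in g*Spns1*-cKO (exact permutation test, p = 0.2). The groups then overlapped, since g*Spns1*-cKO replicate 1 lay among the controls. The share of each gene in the sum does not depend on the scaling. *Tmem86a* gave 8.82% ± 1.85 of this sum in control livers, against 30.6% ± 2.91 in g*Spns1*-cKO livers. *Tmem86b* remained the larger part in each of the 6 livers.

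**Figure D3:**
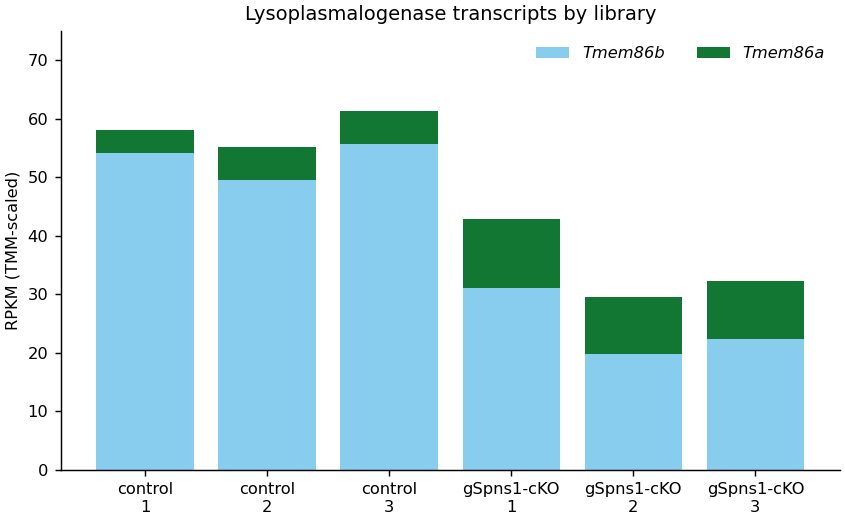
Stacked bars give the TMM-scaled RPKM of *Tmem86b* (light blue) and *Tmem86a* (green) in each of the 6 libraries, on a linear axis from 0. The summed height is between 55.2 and 61.4 in control livers, compared with between 29.5 and 42.8 in g*Spns1*-cKO livers, with a larger green part in the latter.

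AGMO cleaves the ether bond of alkylglycerols and needs tetrahydrobiopterin as a cofactor, and the fatty aldehyde it releases is oxidized by the enzyme of *Aldh3a2*. *Agmo* (ENSMUSG00000050103, chromosome 12, 37241641 to 37582202, plus strand) had 69.2, 56.7 and 79.6 CPM in control livers, against 65.3, 80.3 and 83.7 CPM in g*Spns1*-cKO livers. The livers of both groups mixed, with a log2 fold change of 0.16 (SE 0.14, 95% interval -0.16 to 0.48, edgeR adjusted p = 0.406). Scaled by library size only, it was 0.61 and passed (edgeR adjusted p = 0.00436). Several genes that serve this reaction were lower under TMM. *Aldh3a2*, the fatty aldehyde dehydrogenase gene, fell from 435 ± 83.9 to 182 ± 41.7 CPM (SD, n = 3; log2 fold change -1.26, SE 0.19, edgeR adjusted p = 0.000779). Of 5 tetrahydrobiopterin genes 4 were lower and none higher, where 20.5% of all genes tested were lower. With library size only, however, *Gch1* alone was called lower and *Pts* was called higher, at 0.35 (edgeR adjusted p = 0.025), while *Pcbd1* turned to 0.04. The values of *Pts* and *Pcbd1* lay below 0.457, the median over the genes tested under that scaling. *Gch1*, the first enzyme of that synthesis, had a log2 fold change of -1.07, *Qdpr*, which recycles the cofactor, -0.73 and *Spr*, the last enzyme of synthesis, -0.49 (edgeR adjusted p = 0.000109, 0.00707 and 0.00674). With library size only, *Gch1* and *Aldh3a2* remained past the threshold at -0.63 and -0.81, whereas *Qdpr* and *Spr* did not, at -0.29 and -0.05.

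**Figure D4:**
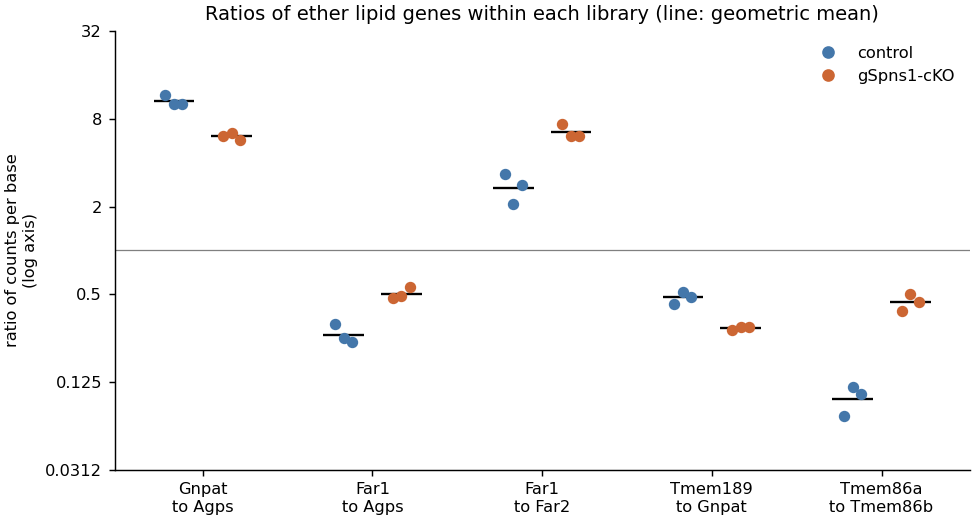
The vertical axis, on a log scale, gives 5 ratios of counts per base between ether lipid genes within each library, with blue points for 3 control and orange points for 3 g*Spns1*-cKO livers and a line at the geometric mean. The groups separate in each ratio, and the widest gap is that of *Tmem86a* to *Tmem86b*, 0.0727 to 0.116 in control livers against 0.382 to 0.503 in g*Spns1*-cKO livers.

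Compared per length, the 8 genes spanned a wide range of levels. In control livers *Tmem86b* was the highest at 53.1 ± 3.21 RPKM, followed by *Gnpat* at 13.5 ± 0.594, *Agmo* at 10.7 ± 1.79, *Tmem189* at 6.42 ± 0.411 and *Tmem86a* at 5.13 ± 1.03 RPKM. *Agps* at 1.27 ± 0.0757, *Far1* at 0.336 ± 0.0339 and *Far2* at 0.125 ± 0.0221 RPKM were the lowest (SD, n = 3 for each). No neighbours in this order overlapped in their ranges over the 3 control livers. In g*Spns1*-cKO livers *Agmo* at 12 ± 1.53, *Gnpat* at 11.1 ± 0.411 and *Tmem86a* at 10.5 ± 1.13 RPKM did not differ beyond their spread, *Tmem189* stood below *Tmem86a* at 3.26 ± 0.128 RPKM, and *Tmem86b* was still the highest at 24.3 ± 5.93 RPKM. The genes of fatty alcohol supply and of the alkyl synthase stayed the lowest in both groups, with *Agps* at 1.82 ± 0.0498, *Far1* at 0.920 ± 0.0981 and *Far2* at 0.142 ± 0.0265 RPKM in g*Spns1*-cKO livers.

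Beyond the 8 genes, 31 other genes of the pathway were listed by role, and all were tested. In g*Spns1*-cKO livers 7 of them were higher and 16 were lower (edgeR adjusted p under 0.05), a share of 74.2% called against 41.8% of all genes in a list likewise made with earlier results known, with a median log2 fold change of -0.29. With library size only the split was 13 higher and 4 lower, and 10 of the 31 genes changed sign. Under that scaling 7289 of the 15449 genes tested were higher and 970 lower. The share called thus depended on the scaling. Of the 31 genes, 17 passed with library size only and 20 with upper-quartile scaling. With RLE size factors, another scaling, 23 passed, as under TMM. *Dhrs7b*, whose enzyme reduces the product of AGPS, fell from 40.4 ± 2.24 to 24.3 ± 2.76 CPM (log2 fold change -0.73, SE 0.11, edgeR adjusted p = 0.000726), and had -0.29 with library size only (adjusted p = 0.0536). Of the 4 import genes 3 were lower, against 20.5% of all genes tested, and none was called lower with library size only. *Pex5*, the receptor for most enzymes of the peroxisome lumen, and *Pex19* and *Pex3*, which insert its membrane proteins, had log2 fold changes of -0.53, -0.52 and -0.50 (edgeR adjusted p = 0.00366, 0.00391 and 0.00678), and with library size only between -0.09 and -0.06. *Pex7*, the receptor that carries AGPS into the peroxisome, is named here after its values were seen. It stood at 88.8 ± 11.9 and 80.4 ± 8.81 CPM (log2 fold change -0.14, 95% interval -0.43 to 0.15, edgeR adjusted p = 0.406), and its value turned to 0.30 with library size only.

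**Figure D5:**
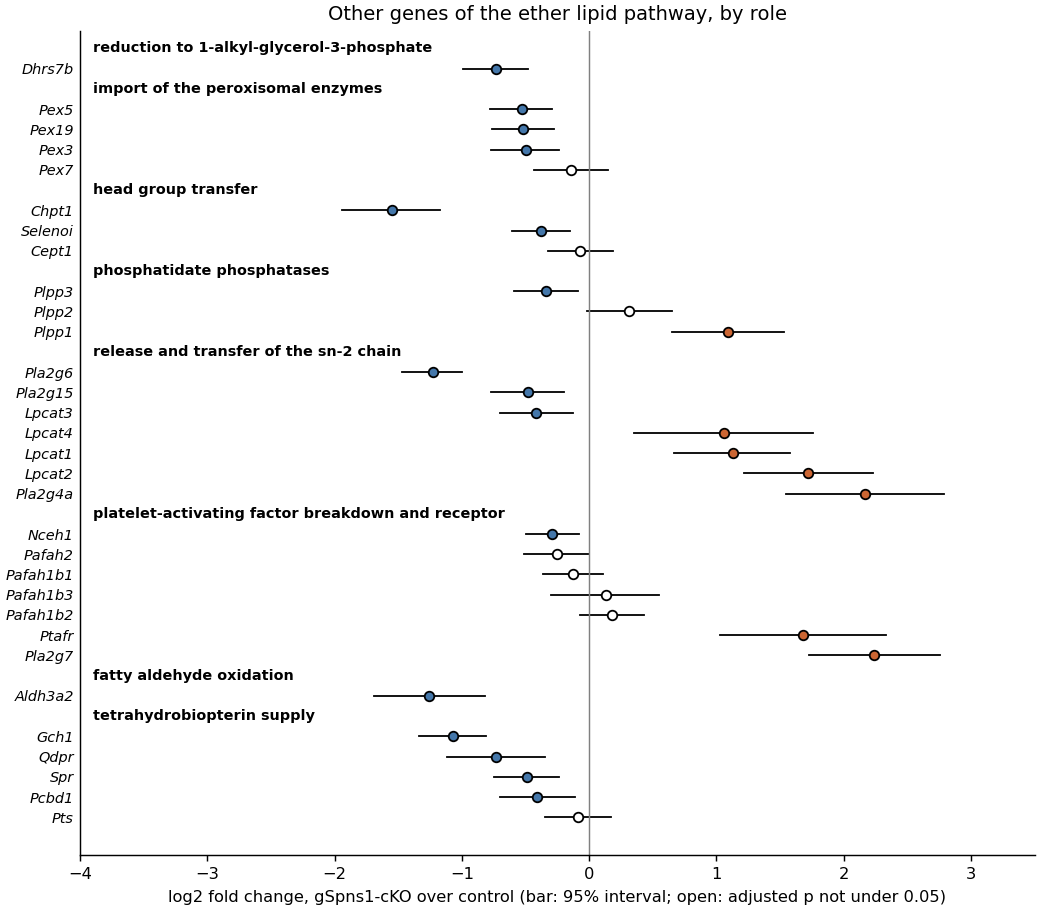
The horizontal axis gives the log2 fold change, g*Spns1*-cKO over control, of 31 other ether lipid pathway genes grouped by role, with bars of the 95% interval, orange points for genes that were higher, blue for lower and open for an adjusted p not under 0.05. The 7 higher genes are *Plpp1*, *Lpcat1*, *Lpcat2*, *Lpcat4*, *Pla2g4a*, *Pla2g7* and *Ptafr*.

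The head group is added to ether lipids by *Selenoi*, *Cept1* and *Chpt1*. *Chpt1*, the choline phosphotransferase, fell from 291 ± 60.6 to 99.3 ± 15.6 CPM (log2 fold change -1.55, SE 0.18, edgeR adjusted p = 0.000119). *Selenoi*, the ethanolamine phosphotransferase used for plasmalogens, had -0.38 (adjusted p = 0.0155) and *Cept1*, which uses both head groups, -0.07 (edgeR adjusted p = 0.679). Scaled by library size only, *Selenoi* turned to 0.07, and *Cept1* turned to 0.38 and was called higher (edgeR adjusted p = 0.0126). Both values lay below 0.457, the median over the genes tested under that scaling. Among the lipid phosphate phosphatases *Plpp1* rose by 1.09 and *Plpp3* had -0.34 on the log2 scale (edgeR adjusted p = 0.00168 and 0.0339), while *Plpp2* had 0.31 (adjusted p = 0.119). *Plpp2* was called higher with library size only, at 0.76, and with upper-quartile scaling, at 0.44 (edgeR adjusted p = 0.00223 and 0.0342), and *Plpp3* turned to 0.11 with library size only.

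The chain on the middle carbon is released by phospholipases and put back by acyltransferases. All 7 genes of this role passed, 4 higher and 3 lower, against 41.8% of all genes tested. With library size only, *Lpcat3* turned to 0.02 and *Pla2g15* moved from -0.48 to -0.04 (edgeR adjusted p = 0.886 and 0.808). *Pla2g6* alone was still called lower there, at -0.79. *Pla2g4a*, the cytosolic phospholipase that frees arachidonate, rose from 0.631 ± 0.0903 to 2.85 ± 0.308 CPM (log2 fold change 2.17, SE 0.28, edgeR adjusted p = 0.000239). *Lpcat2*, whose enzyme also makes platelet-activating factor, an ether lipid messenger, rose from 1.56 ± 0.251 to 5.18 ± 0.707 CPM (1.72, SE 0.23, adjusted p = 0.000284). *Pla2g6*, the calcium-independent phospholipase, fell from 68.3 ± 0.234 to 29.1 ± 2.90 CPM (-1.23, SE 0.11, edgeR adjusted p = 2.74e-05). In control livers *Pla2g4a* and *Lpcat2* were thus scarce beside *Pla2g6*. Of the 7 genes for breakdown and sensing of platelet-activating factor, 2 were higher and 1 lower, a share of 42.9% that is close to the 41.8% of all genes. With library size only, 5 of the 7 were higher and none lower, among them *Pafah1b1* (0.32), *Pafah1b2* (0.63) and *Pafah1b3* (0.57). Under that scaling 7289 of the 15449 genes tested were called higher and 970 lower, with a median of 0.457 on the log2 scale. *Pafah1b1* lay below that median. *Pla2g7*, the secreted acetylhydrolase, had a log2 fold change of 2.24, *Ptafr*, the receptor, 1.68 and *Nceh1*, a hydrolase of acetylated alkylglycerols, -0.29 (edgeR adjusted p = 6.85e-05, 0.00139 and 0.0298), and *Nceh1* turned to 0.15 with library size only.

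Other peroxisomal genes and cell type markers also differed between the groups. All 10 genes of a peroxisome reference list were called lower under TMM, against 20.5% of all genes tested. The list was chosen with earlier results of these data known, and its median on the log2 scale was -1.19. *Phyh*, the phytanoyl-CoA hydroxylase that like AGPS is carried by PEX7, had -1.67 and *Pex11a*, a gene of peroxisome division, -1.54 (edgeR adjusted p = 2.68e-05 and 0.000513). With library size only they had -1.23 and -1.09 (edgeR adjusted p = 7.22e-05 and 0.0018). *Pex13*, of the import machinery, moved from -0.53 under TMM to -0.09 with library size only (edgeR adjusted p = 0.00491 and 0.523). It was the only gene of the list that did not pass under that scaling. *Agps* and *Far1*, whose proteins are also peroxisomal, were higher. *Gnpat*, likewise peroxisomal, was lower at -0.28 (edgeR adjusted p = 0.0376), a call that depended on the scaling. The tissue showed its labelled identity, with 8 hepatocyte markers summed to between 109000 and 125000 CPM in control livers. In g*Spns1*-cKO livers their sum was between 65100 and 75600 CPM, with 5 of the 8 called lower and none called higher. *Alb* was the largest part, at 69300 CPM on average in control and 41900 CPM in g*Spns1*-cKO livers. *Cps1* was higher without overlap but did not pass (log2 fold change 0.36, edgeR adjusted p = 0.1). All marker values are given under TMM only, where 21.3% of all genes tested were higher and 20.5% lower. All 12 macrophage markers were higher, with a summed level of 207 to 322 CPM in control and 760 to 1090 CPM in g*Spns1*-cKO livers, the highest being g*Spns1*-cKO replicate 1. Endothelial markers (5 of 6 higher) summed to 137 to 153 and 202 to 249 CPM, stellate markers (5 of 7 higher) to 83.0 to 105 and 167 to 235 CPM, and cholangiocyte markers (6 of 6 higher) to 5.49 to 6.72 and 23.9 to 33.3 CPM. Neutrophil markers (3 of 4 tested higher) summed to 3.06 to 5.59 and 9.15 to 15.1 CPM and lymphocyte markers (1 of 6 higher) to 2.25 to 3.45 and 4.25 to 4.98 CPM. The 1 of 6 lymphocyte markers lies near the share of all genes tested that were higher. Of 5 adipocyte markers *Lep* had no count, *Adipoq* at most 2 counts and *Plin1* at most 1 in any library, and the list, with 1 of 2 tested genes higher, summed to 8.28 to 23.4 and 9.62 to 12.9 CPM. The higher gene was *Fabp4*. *Cidea*, the other, had 452, 21 and 88 counts in control and 6, 0 and 10 in g*Spns1*-cKO libraries. It was lower without overlap but did not pass (log2 fold change -5.54, edgeR adjusted p = 0.0547). In control replicate 1, *Cidea* gave 16.1 of the 23.4 CPM. In whole liver a change in the share of a cell type and a change of RNA per cell cannot be told apart, and the part of these cell types in the values of the 8 genes and of the other pathway genes was not tested.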

How the data were processed

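Poly-A RNA from 3 control and 3 g*Spns1*-cKO livers was sequenced by a commercial service. The authors deposited 1 table with raw counts per gene and library and with FPKM, which they derived from the counts, a gene length and a library total that is not stated. Per the labels, the processing notes name fastp, HISAT2 2.0.5, featureCounts 1.5.0-p3 and mm10; strand setting and annotation are not given in the sources used here. Lengths and coordinates of all 8 genes matched GENCODE M21 (GRCm38). The table's own fold changes and p-values were not used.

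The counts went into edgeR 4.0.16 under R 4.3.3 (filterByExpr, TMM, robust quasi-likelihood fit, Benjamini-Hochberg adjustment over 15449 genes, threshold 0.05). Standard errors are the log2 fold change over the root of F. CPM and RPKM use TMM-scaled libraries and deposited lengths. Ratios were compared by two-sided exact permutation tests. A count of 3 corresponded to between 0.0763 and 0.119 CPM, for counting error only. Libraries of a group differed by more than sampling noise (chi-square per gene between 42.5 and 126). Alternatives were DESeq2 1.42.0, limma 3.58.1 (voom and log2(FPKM + 1)), 3 other scalings, 2 other filters, a threshold of 0.01, a replicate block and leaving out each liver. The sum of *Tmem189* and *Gm20431*, and library size only for the *Tmem86a* and *Tmem86b* sum, were added after seeing the data. Scripts were tested on simulated data. Named genes are the 8, *Spns1*, pathway genes of roles with up to 3 genes or the 3 most changed called genes of larger roles, and the 2 most changed peroxisome reference genes. *Pex7*, *Pex13*, *Pcbd1*, *Pts*, *Pla2g15*, *Lpcat1*, *Lpcat3*, *Lpcat4*, 3 *Pafah1b* genes, *Alb*, *Cps1*, the adipocyte markers and the genes that overlap members were named after their values were seen. Members and lists were chosen with earlier results of these data known.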

Additional observations from a re-analysis of the deposited data

How the results depend on the processing

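Between 5 and 6 of the 8 genes passed under each of 16 alternatives, and *Agps*, *Far1*, *Tmem86a*, *Tmem86b* and *Tmem189* kept direction and call in each fit run. *Gnpat* turned to 0.16 with library size only and did not pass with upper-quartile scaling (adjusted p = 0.227), with a filter of 1 count in any library (0.0735) or of 10 in every library (0.0656), or in 4 of the 6 fits without 1 liver. *Agmo* passed with library size only (0.61), and *Spns1* did not with library size only or upper-quartile scaling (adjusted p = 0.0635). Of the other pathway genes, library size only called 13 higher and 4 lower, beside 7289 higher and 970 lower over all genes. A threshold of 0.01 called 10 of the other pathway genes lower. On log2(FPKM + 1), where the pseudocount shrinks low genes, *Far1* was 0.52 and *Agps* 0.31. Adding *Gm20431*, which has no counts, left *Tmem189* at -0.98. Deviations of same-numbered livers from their group means correlated at 0.04, 0.03 and -0.03, which cannot show whether such livers shared a litter or handling. The labels give no pairing beyond the replicate numbers. With them as a replicate block, 5 of the 8 genes and 22 of the other pathway genes passed, *Gnpat* had an edgeR adjusted p of 0.0589, and 3084 genes were higher and 3016 lower over all genes; the ratios kept their values, with p = 0.25 by an exact sign-flip permutation test, the smallest for 3 pairs. The summed RPKM of *Tmem86a* and *Tmem86b* had a log2 difference of -0.76 under TMM and of -0.31 with library size only. The values of *Far2* rest on at most 49 counts a library.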
